A study of Mus musculus with 3 samples.

Results

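GLI3 binding was examined at the promoters of noncoding RNA genes in mouse forelimb buds. These binding regions were taken from a single list of chromatin immunoprecipitation and sequencing (ChIP-seq) peaks, an assay that recovers and reads the DNA fragments attached to a protein. A peak was included when its summit, the position of strongest signal, lay within 1 kb of a transcription start site (TSS) of a noncoding gene and more than 3 kb from every protein-coding TSS. The noncoding genes were those that GENCODE M21 (mm10) types as lincRNA, antisense, processed transcript, sense intronic, bidirectional promoter lncRNA or miRNA. Of 16854 listed peaks on autosomes, 372 met this rule, at 310 noncoding genes counted by the nearest TSS. They are called noncoding promoter peaks here. The rule uses positions only, and the set was proposed with earlier results of these data known.

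The forelimb buds came from E10.5 embryos (32 to 35 somites) in which the endogenous Gli3 gene carries a FLAG tag. There were 2 ChIP replicates, each from pooled limb buds of 2 litters, and 1 input library of chromatin that was not immunoprecipitated. The genotype field of the records reads wild type, while the series describes the tagged allele. All 3 libraries share the tag and the stage, there was no untagged or mutant group in the list, and whole limb buds mix several cell types, so a peak is an average over them. The authors called 1 list from the libraries. It holds no value per replicate, so no replicate error can be attached to any value here and no test between conditions was possible. Ranges in brackets after a share are 95% Wilson intervals. They cover only the counting error over peaks.

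GLI3 is a zinc finger transcription factor of the Hedgehog (HH) pathway. Without HH signal it is processed to a repressor, and in the limb bud it restricts HH target genes outside the posterior region where Sonic hedgehog is made. GLI proteins recognise the consensus GACCACCCA. Long noncoding RNAs are transcribed by the same polymerase as messenger RNAs and many of their genes lie beside developmental regulators, while primary transcripts that hold hairpins are cut into miRNAs, short RNAs that pair with messenger RNAs through their seed (bases 2 to 8).

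The sequences that carry the GLI3 recognition letters at these promoters are shown first. Each line gives 39 bases of the GRCm38 (mm10) reference genome with the match in capitals, written on the strand where it reads as the consensus. The first 3 are the noncoding promoter peaks with an FDR (the false discovery rate of the peak caller) under 0.05 that hold an exact match and can be printed.
Gm34785: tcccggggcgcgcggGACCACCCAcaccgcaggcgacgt
Gm34562: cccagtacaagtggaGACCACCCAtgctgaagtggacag
9130410C08Rik: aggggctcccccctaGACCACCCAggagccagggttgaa
They lie at chr12:110188778-110188816 (minus strand), chr15:51628756-51628794 (plus) and chr4:114903256-114903294 (minus), and the matches are 120, 78 and 58 bp from the summits.

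An exact match also lay at the summit itself, at a distance of 0 bp, at Dlx1as on chr2:71538528-71538566 (plus). Dlx1as is transcribed antisense to the homeobox gene Dlx1, and its peak had an FDR of 0.148, above the threshold.
Dlx1as: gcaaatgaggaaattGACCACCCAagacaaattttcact

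The next sequences each hold a match with 1 mismatch. They belong to peaks nearest to genes of limb patterning and HH signalling. Of 11 such peaks with an FDR under 0.05, 4 held a match and 7 did not, and 3 of the 4 are shown. The summits lay 33.4 kb from the Dusp6 TSS for B530045E10Rik (chr10:99299176-99299214, minus) and 107.6 kb from the Gas1 TSS for Gm48397 (chr13:60069207-60069245, minus). For Gm43120 (chr3:99262278-99262316, plus) the distance was 8.5 kb from the Tbx15 TSS.
B530045E10Rik: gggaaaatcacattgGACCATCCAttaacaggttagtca
Gm48397: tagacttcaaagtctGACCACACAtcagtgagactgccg
Gm43120: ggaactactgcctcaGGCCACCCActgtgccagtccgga

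The strongest of all noncoding promoter peaks also held at most such inexact matches. Gm39043 (chr7:83814351-83814389, plus), F630040K05Rik (chr17:45757145-45757183, plus) and Gm26885 (chr17:29464302-29464340, plus) had 1 match each, between 102 and 163 bp from the summit.
Gm39043: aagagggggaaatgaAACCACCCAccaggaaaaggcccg
F630040K05Rik: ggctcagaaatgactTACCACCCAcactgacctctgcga
Gm26885: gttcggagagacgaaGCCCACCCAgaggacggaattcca
The other member of the top 4, Gm9530, held none within 250 bp of its summit. The bases within 50 bp of that summit (chr1:155083507-155083607, plus) are shown for contrast, as a stretch rich in G and C.
Gm9530: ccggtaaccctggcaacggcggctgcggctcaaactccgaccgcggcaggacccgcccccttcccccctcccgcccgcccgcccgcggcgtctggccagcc

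Of the 372 noncoding promoter peaks, 165 had an FDR under 0.05, the threshold of the study, and are called GLI3 peaks below. They lay at 150 noncoding genes. The share was 44.4% (95% interval 39.4 to 49.4), against 42.7% of all autosomal listed peaks. The share was 46.4% for the 8192 peaks with a summit within 1 kb of a protein-coding TSS (coding promoter peaks). It was 39.2% for the 7119 distal peaks, which lie more than 3 kb from a coding and more than 1 kb from a noncoding TSS. The interval for the noncoding promoters contains the share over all peaks. At the threshold, the last GLI3 peak was at Gm37359, with a log2 fold enrichment of 2.31 and an FDR of 0.041, and the next peak was at 9130204K15Rik, also at 2.31 after rounding but with an FDR of 0.0704. Next to the limit of 1 kb, the peak at Gm48623 lay inside at 999 bp and a peak 1011 bp from Gm32224 lay outside. Next to the limit of 3 kb, the peak at Gm11613 was 3.02 kb from the nearest coding TSS (Mllt6), and a peak at Six3os1 fell outside at 2.89 kb from Six3.

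Among peaks that passed the FDR threshold, those at noncoding promoters had nearly the same median strength as those elsewhere in the list. The median log2 fold enrichment of ChIP over input, taken by the authors' caller at the highest window of the peak, was 2.72 (95% interval of the median 2.67 to 2.80, quartiles 2.48 and 3.07). It was 2.70 over 3802 GLI3 peaks at coding promoters and 2.69 over 2794 distal GLI3 peaks, both inside that interval. The FDR threshold acted as a cut on this enrichment. Over all autosomal peaks the lowest GLI3 peak had 2.3142 and the highest other listed peak 2.3139. All classes were therefore cut at the same value before these medians were taken. Over all listed peaks the medians were 2.27 at noncoding promoters, 2.27 at coding promoters and 2.19 at distal sites. The median length was 400 bp in each of the 3 classes. At 1 kb or longer there were 13 noncoding promoter peaks (7.9%), 6.3% of those at coding promoters and 4.0% of the distal ones. The strongest noncoding promoter peak reached 4.83, compared with 6.05 at coding promoters and 6.37 at distal sites.

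Enrichment overlapped widely between the gene types. The lincRNA genes, a type meant for long noncoding genes between coding genes, held 213 of the listed peaks, of which 99 were GLI3 peaks with a median of 2.72 (range 2.32 to 4.83). The antisense genes, transcribed opposite to another gene, held 25 GLI3 peaks of 65 listed, with a median of 2.62. The processed transcripts held 22 of 56, with a median of 3.04. The miRNA genes held 14 of 32, with a median of 2.60 and a maximum of 3.65. The sense intronic genes held 3 of 4. A single bidirectional promoter gene, Haglr, held both remaining peaks. Over all listed peaks, without the cut at the threshold, the medians were 2.28 for lincRNA and 2.16 for antisense genes. They were 2.27 for processed transcripts and 2.21 for miRNA genes. The shares of GLI3 peaks, 46.5% (39.9 to 53.2) for lincRNA, 38.5% (27.6 to 50.6) for antisense, 39.3% (27.6 to 52.4) for processed transcripts and 43.8% (28.2 to 60.7) for miRNA genes, had overlapping intervals.

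**Figure D1:**
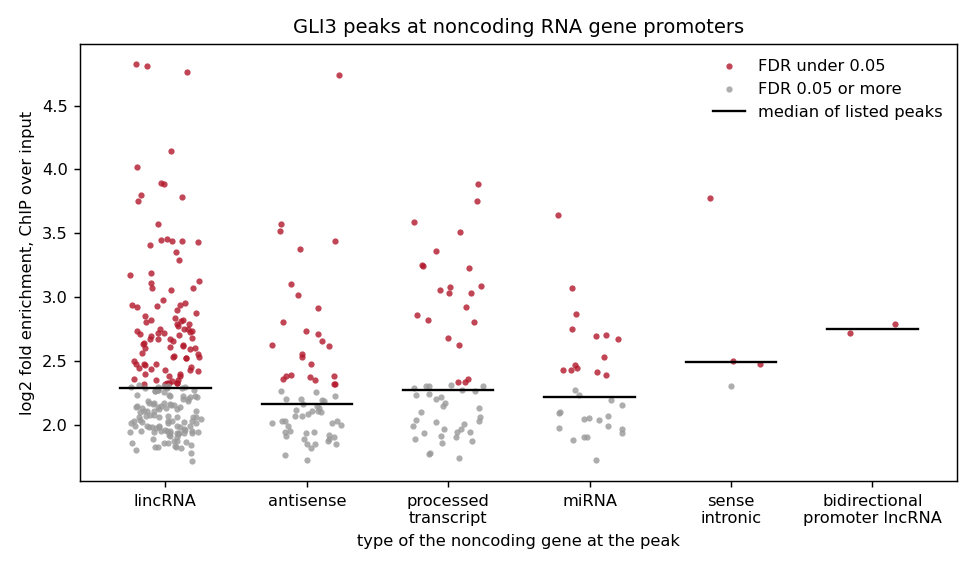
Log2 fold enrichment of ChIP over input (vertical axis) for each of the 372 noncoding promoter peaks, by the type of the noncoding gene (horizontal axis, points spread sideways for legibility). Red points have an FDR under 0.05, grey points 0.05 or more, and bars are medians of the listed peaks; 4 points stand at 4.74 or above, 3 of them at lincRNA genes.

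The 12 noncoding promoters with the highest ranks were mostly those of genes with provisional names. Rank follows the authors' T statistic, a score of the difference between ChIP and input. Gm39043, a lincRNA gene on chr7, had the strongest peak, ranked 39 of the list, with a log2 fold enrichment of 4.83 (28.4-fold) over 800 bp, 500 bp before its TSS. Gm9530 on chr1 followed at rank 42 with 4.81 over 1450 bp, and its nearest coding gene was the immediate early gene Ier5 at 16.1 kb. F630040K05Rik on chr17 had 4.76 over 900 bp. Gm26885, an antisense gene on chr17, had 4.74 at 22 bp before its TSS, and lay 26.6 kb from Pim1, which encodes a serine/threonine kinase. These 4 peaks were the noncoding promoter peaks at which the −log10 of the Poisson p-value reached its ceiling of 100, and they stood apart from the next at 4.14.

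That next peak, at the lincRNA gene AC141471.3, was the longest of all noncoding promoter peaks at 2050 bp. Its nearest coding gene, at 19.8 kb, was Cxxc5, which encodes a CXXC zinc finger protein. A GLI match with 1 mismatch lay 2 bp from its summit. The next longest peaks were 1850 bp each, at Gm31763 (log2 fold enrichment 3.52) and at Gm34030 (3.45). The remaining peaks of the top 12 lay at Gm28872 (4.02), Gm26887 (3.90), E330035G20Rik (3.88), Dleu2 (3.88), 2810433D01Rik (3.80), C030014I23Rik (3.78) and Gm29540 (3.78). Of these, 2810433D01Rik was 19991 bp from Fzd2, a receptor for Wnt ligands, and its peak summit was 21 bp before the TSS. Gm29540, a sense intronic gene, held a GLI match with 1 mismatch 14 bp from the summit. The 12 peaks were between 350 and 2050 bp long, and 5 of them held a GLI match.

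The summits were spread more widely around noncoding TSSs than around coding ones. The median distance from summit to the nearest TSS was 294 bp (quartiles 109 and 612) for the 165 GLI3 peaks, against 93 bp (32 and 216) at coding promoters. Within 100 bp of the TSS lay 36 of 165 summits, 21.8% (16.2 to 28.7), against 52.0% (50.4 to 53.6) of those at coding promoters. Coding genes have more annotated starts, a median of 5 per gene against 1 for the noncoding genes, which shortens distances to the nearest one. Measured to the 5′ end of the gene alone, over the peaks within 1 kb of it, the medians were 300 bp and 130 bp. Among noncoding GLI3 peaks with a CpG island the median was 283 bp, and among those without one it was 320 bp. At coding promoters it was 91 bp over 3689 peaks with an island and 258 bp over 113 peaks without one.

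**Figure D2:**
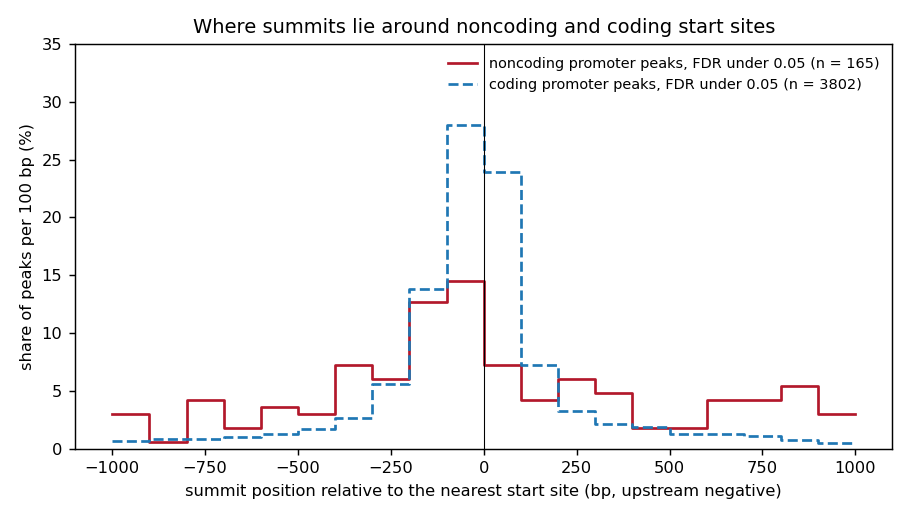
Share of GLI3 peaks (FDR under 0.05) per 100 bp of position relative to the nearest TSS, with upstream negative, for 165 noncoding promoter peaks (solid red) and 3802 coding promoter peaks (dashed blue). The 100 bp just upstream held 14.5% of the noncoding and 28.0% of the coding peaks, and beyond 200 bp from the TSS the noncoding curve is the higher one except in the bins that begin at -900 and 400 bp.

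Upstream of the nearest TSS lay 94 of the 165 summits (57.0%, 49.3 to 64.3), and 71 lay downstream. The upstream summits were nearer, with a median distance of 212.5 bp against 396 bp downstream. Among the 207 listed peaks with an FDR of 0.05 or more, 98 were upstream, 47.3% (40.7 to 54.1). The share of GLI3 peaks had overlapping intervals at all distances. Of the listed peaks within 100 bp of the TSS 41.4% (31.6 to 51.9) were GLI3 peaks, and of those beyond 500 bp 46.9% (38.0 to 56.1). The TSS lay outside every coding gene for 137 of the 165 GLI3 peaks, inside one on the opposite strand for 23 and inside one on the same strand for 5.

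CpG islands, stretches of usually unmethylated, CpG-rich DNA at most housekeeping and many developmental promoters, set the noncoding promoters between the other classes. An island was computed from the sequence as any 200 bp window of at least 0.5 GC, with an observed to expected CpG ratio above 0.6, that overlapped the sequence within 500 bp of the summit. It was found at 100 of 165 GLI3 peaks at noncoding promoters, 60.6% (53.0 to 67.7). The share was 97.0% at coding promoters and 30.8% at distal GLI3 peaks. The median GC content within 250 bp of the summit ran in the same order, with 65.7% at coding promoters, 55.3% at noncoding promoters and 49.3% at distal peaks. GLI3 peaks at noncoding promoters with and without an island had median log2 fold enrichments of 2.74 and 2.70, both after the cut at the threshold. Over the listed noncoding promoter peaks both medians were 2.27. Of the 207 noncoding promoter peaks above the FDR threshold 133 (64.3%) had an island. No GLI3 peak at a noncoding promoter was over 50% repeat sequence, 0 of 165, which allows a share of up to 1.82% by the limit of 3 counts (2.28% by the Wilson interval), against 0.862% of all GLI3 peaks on autosomes.

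Most noncoding promoters had no GLI3 peak. There were 8489 autosomal noncoding genes with a TSS more than 3 kb from coding ones, and 159 had a GLI3 peak within 1 kb, 1.87% (1.61 to 2.18), counting every gene in range and not only the nearest. Of 20807 protein-coding genes, 3771 had one, 18.1% (17.6 to 18.7). Among genes with a CpG island at a TSS the shares were higher in both kinds, 100 of 2166 noncoding genes, 4.62% (3.81 to 5.58), against 24.9% of coding genes. Without an island the order was reversed, with 59 of 6323 noncoding genes, 0.933% (0.724 to 1.20), and 21 of 5742 coding genes, 0.366% (0.239 to 0.558). By gene type the share was 3.85% for processed transcripts, 2.09% for lincRNA genes and 1.07% for miRNA genes, and 24 of 1598 antisense genes had a GLI3 peak. Expression of these genes was not measured here, and coding genes have more annotated starts at which a peak or an island could fall.

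**Figure D3:**
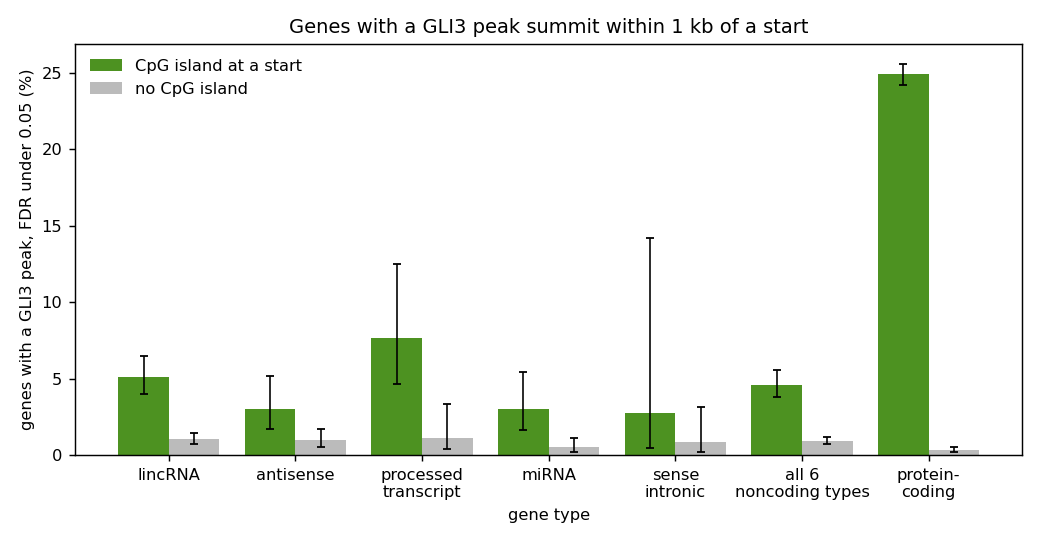
Share of genes with a GLI3 peak (FDR under 0.05) within 1 kb of a TSS, by gene type, split by the presence of a CpG island at a TSS. Bars start at 0 and error bars are 95% Wilson intervals; with an island the noncoding genes together reach 4.62% and the protein-coding genes 24.9%.

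A GLI motif, taken as GACCACCCA or its reverse complement TGGGTGGTC with at most 1 mismatch within 250 bp of the summit, was found at 34 of 165 GLI3 peaks, 20.6% (15.1 to 27.4). Windows of the same length 2 kb to either side of these summits held one in 37 of 330, 11.2%. At the 5′ ends of 8160 noncoding genes with no listed peak the share was 10.3% (9.68 to 11.0), and at those of all protein-coding genes 11.3%. Among promoters of 300 bp in RefSeq it was 6.74% of 32851. The share at noncoding promoter peaks lay between the 17.5% (16.4 to 18.8) of coding promoter peaks and the 24.5% (22.9 to 26.1) of distal GLI3 peaks, and its interval contained both. It was 17.4% (12.8 to 23.1) at the noncoding promoter peaks above the threshold, an interval that overlaps. Without a CpG island the share was 24.6% (15.8 to 36.3), and with one 18.0% (11.7 to 26.7).

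Matches were denser near the summits. Within 50 bp of the 165 summits there were 16 matches, and 7 lay at 150 to 246 bp, which per base is a ratio of 4.39. The ratio was 1.73 at coding promoters and 2.64 at distal peaks, where it rests on more matches. The count of 7 is small, and no interval was computed for the ratio. An exact consensus was found at 4 GLI3 peaks, 2.42%, against 1.76% at coding promoters and 4.26% at distal peaks. These were Gm34785 (log2 fold enrichment 3.29), Gm34562 (2.93), 9130410C08Rik (2.73) and A330094K24Rik (2.63). Among the peaks above the threshold another 4 held one, at Gm9951 (2.30), Dlx1as (2.16), Gm28640 (1.94) and Gm20275 (1.85). 9130410C08Rik, an antisense gene, is 5.66 kb from the forkhead gene Foxd2, and Gm34785 is 90.2 kb from Dio3, which encodes a deiodinase that inactivates thyroid hormone.

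**Figure D4:**
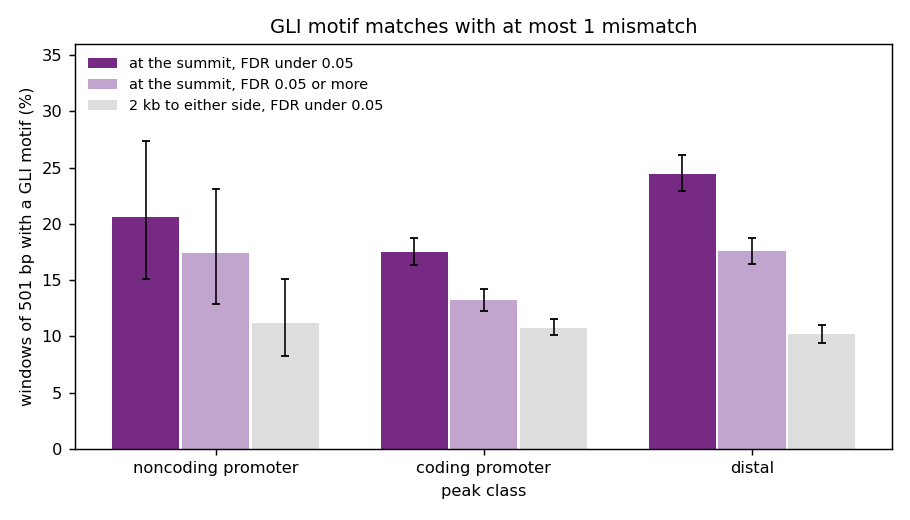
Share of windows with a GLI motif (at most 1 mismatch within 250 bp of the centre) at the summits of peaks with an FDR under 0.05 (dark), of the other listed peaks (light purple) and 2 kb to either side of the former (grey), for 3 peak classes. Bars start at 0 and error bars are 95% Wilson intervals; at noncoding promoters the values are 20.6%, 17.4% and 11.2%.

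Peaks near genes of limb patterning and HH signalling were picked out with a list of 104 protein-coding genes, of which 103 are annotated. It was the nearest coding gene of 23 noncoding promoter peaks, at 13 list genes, and 11 of the 23 were GLI3 peaks, at 7 list genes. That is 47.8% against 42.7% over all autosomal peaks. Gm34030, near Hand2, which encodes a transcription factor of the posterior limb bud upstream of Sonic hedgehog, had the strongest of them, with a log2 fold enrichment of 3.45 over 1850 bp at 12.9 kb from the Hand2 TSS. Hand2os1, the noncoding gene upstream of Hand2, had a GLI3 peak of 2.81 at 27.3 kb and another listed peak of 1.87 with an FDR of 0.822. A listed peak of 1.98 at 5033428I22Rik, also nearest to Hand2, had an FDR of 0.470. The best-ranked listed peak at a start of Hand2 itself had rank 12834, beyond the FDR threshold.

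Gm20052, 69.3 kb from the homeobox gene Msx1, had peaks of 3.44 and 2.33. Their summits were 0.46 kb apart, each near a different annotated start of the gene, 42 bp before one and 7 bp after the other. A further listed peak of that gene had 2.02 and an FDR of 0.438. Gm36325 and Gm28511, on opposite sides of the homeobox gene Irx3 at 87.9 and 64.3 kb, had peaks of 3.13 and 2.75. Gm48396 and Gm48397 had peaks of 2.81 and 2.67 at 118.9 and 107.6 kb from Gas1, which encodes a co-receptor for HH ligands. B530045E10Rik had a peak of 2.70 at 33.4 kb from Dusp6, a phosphatase that limits FGF signalling, and another listed peak of 2.06 with an FDR of 0.438. Gm30709 had a peak of 2.67 over 250 bp at 54.0 kb from Ptch1, the HH receptor, whose own start held the peak of rank 2 in the list. Gm43120, antisense within Tbx15, had a peak of 2.36. The peaks nearest to Pitx1, Foxc1, Osr2, Lhx2, Mycn and Fgf10 lay above the FDR threshold, with enrichments between 1.83 and 2.19. The nearest coding gene is a label of position, and which gene a region acts on was not measured.

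**Figure D5:**
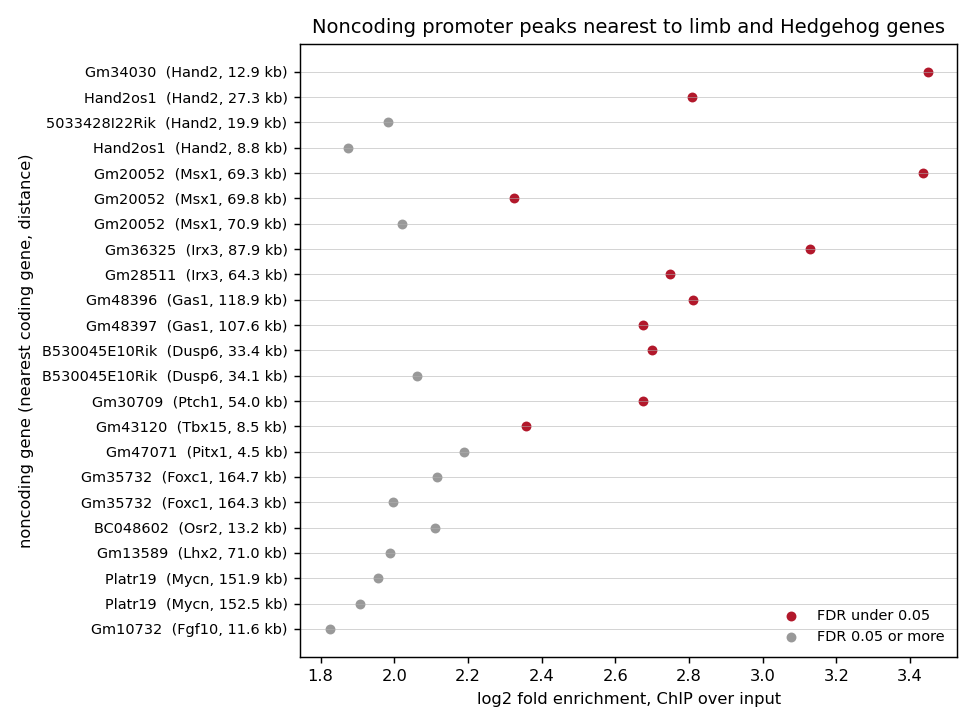
Log2 fold enrichment (horizontal axis) of the 23 noncoding promoter peaks whose nearest protein-coding gene is on the limb and Hedgehog list, 1 row per peak, labelled with the noncoding gene and, in brackets, the coding gene and the distance to its TSS. Red points have an FDR under 0.05; the highest are at Gm34030 (3.45) and Gm20052 (3.44), and the grey points run from 1.83 to 2.19.

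Across all 165 GLI3 peaks, the median distance to the nearest coding TSS was 34.8 kb (quartiles 12.6 and 87.0), and 36 peaks lay between 3 and 10 kb. For 57 of the 165 peaks, 34.5% (27.7 to 42.1), a start of the nearest coding gene also held a GLI3 peak. The share was 30.4% (24.6 to 37.0) for the listed peaks above the threshold, an interval that overlaps. Of all protein-coding genes 18.1% had such a peak. That share counts each gene once, whereas the shares of peaks count a gene again for each peak nearest to it. The same share for distal peaks was not computed. A further example was 4632428C04Rik, a lincRNA gene 55.4 kb from Hes1, an effector of Notch signalling. Its peak reached 3.76, and the Hes1 start held a peak of rank 194. This gene was chosen after its values were seen.

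Other GLI3 peaks were common nearby. Within 10 kb of 63 of the 165 summits there was at least 1 further GLI3 peak, 38.2% (31.1 to 45.8). The share was 29.6% for coding promoter peaks and 29.3% for distal ones. It was 48.0% at noncoding promoters with a CpG island and 23.1% at those without. For distal peaks it was 38.4% with an island and 25.3% without. For coding promoter peaks the order was the other way, 29.4% with an island and 37.2% without. Some of this is the same promoter counted again, since 13 noncoding genes had 2 GLI3 peaks and Dleu2 had 3. Joining GLI3 peaks at noncoding promoters that lay within 100 kb of each other gave 18 loci holding 41 of the 165 peaks, and peaks of 1 locus are not independent of each other.

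Dleu2, a processed transcript that hosts miR-15a and miR-16-1, had its 3 peaks over 33.5 kb on chr14, with enrichments of 3.88, 3.23 and 2.86. The first, 50 bp before a TSS inside the gene, was also within 1 kb of Gm27017. Haglr, a lncRNA gene of the HoxD cluster, had 2 peaks 3.51 kb apart at 2.79 and 2.72, the nearest coding gene being Hoxd3. The gene lists used here were written with earlier results of these data known. Of 18 noncoding Hox cluster genes on such a list, 10 had a TSS more than 3 kb from coding ones. Besides Haglr, Hoxb3os (2.22) and Hoxaas2 (1.97) had listed peaks above the FDR threshold. That is 1 of 10 testable genes, beside 1.87% of all 8489 testable noncoding genes.

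Among lncRNA genes of known function, GLI3 peaks were counted list by list. The list of abundant or nuclear lncRNAs had 13 genes, of which 9 could be tested, meaning annotated with a TSS more than 3 kb from coding ones, and 3 of them had a GLI3 peak. These were Kcnq1ot1 (3.10), the imprinted antisense RNA that silences neighbouring genes in cis, Neat1 (2.80), the scaffold of paraspeckles, and Malat1 (2.45), an RNA of nuclear speckles. Over all 8489 testable noncoding genes 1.87% had a GLI3 peak, and all counts of listed genes here are to be read beside that share, with no test made. The share was 4.62% for testable genes with a CpG island and 0.933% for those without. The lists were not split by island, so the nearer background for each list is not known. The Neat1 summit was nearer to a start of Frmd8os. Lncpint (1.78) and Meg3 (1.98) had listed peaks above the threshold. Kcnq1ot1 was the only 1 of 8 testable imprinted lncRNAs with a GLI3 peak. None of 10 testable snoRNA host genes had one, and 3 of them (Snhg12, Snhg5 and Snhg6) had listed peaks. Of 15 testable lncRNA genes beside developmental regulators, Hand2os1 had one, while Six3os1, Dlx1as, Pantr2 and C130071C03Rik had listed peaks above the threshold.

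Hosts of miRNAs had GLI3 peaks at 3 of 12 testable genes, beside 1.87% of all testable noncoding genes. These were Dleu2, Dnm3os and Mir17hg. Dnm3os, antisense within Dnm3, gives rise to miR-199a and miR-214 and had a peak of 3.38 over 900 bp, 101 bp before its TSS. Mir17hg, the primary transcript of the miR-17 to miR-92a cluster, had a peak of 2.54, 797 bp before its TSS. Mature sequences from RefSeq (GRCm38.p6) are given for these hosts, with the seed in capitals. miR-15a and miR-16 share the seed AGCAGCA, miR-17 and miR-20a share AAAGUGC, and miR-19a and miR-19b share GUGCAAA.
miR-15a-5p: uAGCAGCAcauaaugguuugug
miR-16-5p: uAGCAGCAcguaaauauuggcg
miR-17-5p: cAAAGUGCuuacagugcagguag
miR-20a-5p: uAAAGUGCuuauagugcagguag
miR-19a-3p: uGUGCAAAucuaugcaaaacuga
miR-19b-3p: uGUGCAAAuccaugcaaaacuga
miR-18a-5p: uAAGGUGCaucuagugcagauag
miR-92a-3p: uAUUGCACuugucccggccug
miR-199a-5p: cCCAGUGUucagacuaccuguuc
miR-214-3p: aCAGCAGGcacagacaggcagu

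At genes annotated as miRNAs themselves, 14 GLI3 peaks were found at 14 genes by the nearest TSS, and mature sequences of 9 of them were matched in RefSeq. The annotated start of such a gene is the start of the hairpin and not of the primary transcript, so these peaks lie near hairpins and need not be at promoters. The highest-ranked was Mir1942, within Plec, with an enrichment of 3.65. It was followed by Mir8120 (3.07), Gm44338 (2.87), Gm47305 (2.75), Gm44458 (2.70), Mir9-3 (2.70), Gm24756 (2.67) and Mir763 (2.53). Mir9-3 encodes miR-9, known from the nervous system, and its summit lay 397 bp before the hairpin with 2 GLI matches around it. Mir763 lies inside Hmga2, a chromatin protein gene of growing tissues, whose start held a peak of rank 171. Mirlet7i, which encodes let-7i, had a peak of 2.47, 513 bp before the hairpin. In the list of 30 miRNAs described in limb or skeletal tissue, 18 could be tested and 3 had a GLI3 peak, beside 1.07% of all testable miRNA genes. They were Mir199a-2 (through the peak at Dnm3os), Mir9-3 and Mirlet7i.
miR-9-5p: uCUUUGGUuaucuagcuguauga
let-7i-5p: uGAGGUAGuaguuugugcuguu
miR-763: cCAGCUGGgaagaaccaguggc

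A few of these peaks depend on the annotation. Within 3 kb of a curated RefSeq messenger RNA start lay 9 of the 372 peaks, 6 of them GLI3 peaks, including those at Trerf1 and Zswim6. Both genes are typed as processed transcripts in GENCODE M21 and have protein-coding transcripts in RefSeq. At the other extreme, 1239 of the 1611 peaks with a summit within 1 kb of a noncoding TSS were left out because a coding TSS lay within 3 kb, and 597 of those had an FDR under 0.05. So most GLI3 peaks at noncoding starts, 597 against 165, were at starts that share their neighbourhood with a coding promoter.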

How the data were processed

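ChIP-seq libraries (2 FLAG ChIP replicates and 1 input) of forelimb buds were made with 15 PCR cycles. Per the labels' processing notes, reads were aligned with Bowtie2 2.2.5 to mm10. The study's methods name CisGenome and both replicates for peak calling, and the 1 list of 17149 peaks was taken as a joint call. The deposited FDR is a q-value per peak. The authors' log2 fold enrichment is the largest ChIP to input value in a peak, the deposited −log10 Poisson p-value stops at 100, and the authors' T statistic is a score that sets the rank. The list gives no read totals and the study's methods state only a lower bound on depth, so exact depths are not given here.

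From these values, counts, medians and shares were computed with Python 3.11.15, pandas 2.3.3, scipy 1.17.1 and pysam 0.24.0. Peaks off the autosomes (295) were left out, and 0 peak ends passed a chromosome end of GRCm38.p6. TSSs were the 5′ ends of every GENCODE M21 transcript, and no gene of that release carried the type lncRNA. Distance, motif and island functions were tested on simulated data. Alternatives changed the distances, TSS sets, gene types, FDR threshold, motif and island definitions. The peak set, gene lists and comparisons were chosen with earlier results of these data known. Peaks named in the text were the 12 highest-ranked with an FDR under 0.05, those at listed noncoding genes or nearest to listed limb genes, the 3 longest, those with an exact motif, up to 8 at miRNA genes, and those next to a limit. Hes1's neighbour, Mirlet7i as a ninth miRNA gene by its list, and the annotation examples Trerf1 and Zswim6 are additional. The sequence of 1 matched region is not reported here.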

Additional observations from a re-analysis of the deposited data

How the results depend on the processing

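Each of the 7 summary values was recomputed under other settings, giving 83 alternative values. Of these, 74 stayed within 1.5 times a count or inside the 95% interval of a share or median, and 9 moved beyond it. Of those that moved, the Poisson measure is on another scale and the windows 2 kb away are a background, so neither tests the stability of a value. The share with a CpG island, 60.6%, rose to 67.9% when peaks down to 1 kb from a coding TSS were admitted and to 69.8% with gene 5′ ends only, and was 43.0% with a stricter island (a 500 bp window, GC content of at least 0.55, ratio above 0.65). An FDR under 0.01 left 118 GLI3 peaks, 31.7% of the listed ones, with a median log2 fold enrichment of 2.87. The motif share, 20.6%, was 2.42% for an exact match, 13.9% within 100 bp of the summit and 11.2% in the windows 2 kb away. Within 100 bp it was 8.73% at coding promoters and 14.9% at distal peaks. The median −log10 Poisson p-value, another measure of strength, was 17.6. Basic transcripts only (387 peaks, 178 with an FDR under 0.05) and leaving out peaks near a curated RefSeq messenger RNA start (363 and 159) were chosen after seeing the data. No paired analysis was possible because replicates have no columns of their own, and for the same reason neither could be left out. The exact depth per library and the strength per replicate are not in the list, which limits what a missing peak can say.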
